A study of Mus musculus with 16 samples.

Results

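Phase II conjugation enzymes attach a polar group to drugs, hormones and products of lipid oxidation so that these can leave the cell. The enzymes described here were the mouse genes whose symbol on the array begins with Gst, Mgst, Ugt or Sult followed by the class letter or number of a glutathione transferase, a UDP-glycosyltransferase or a sulfotransferase. They came to 54 genes of the 30214 gene names on the array, with 80 probes. These were 20 cytosolic glutathione transferases, 3 membrane glutathione transferases, 14 UDP-glycosyltransferases and 17 sulfotransferases. Gstk1, of the mitochondrial and peroxisomal kappa class, is counted with the cytosolic ones throughout. The 54 genes were chosen by symbol and not by a measured value, though with earlier results of these data known.

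Glutathione transferases join reactive, electron-poor molecules to the tripeptide glutathione, UDP-glucuronosyltransferases add glucuronic acid to phenols, bile acids and steroids, and sulfotransferases add a sulfate taken from the donor PAPS. Liver is a main site of all these reactions. Many of the genes lie in clusters of close relatives, and several are known targets of the transcription factor NRF2, which binds antioxidant response elements, or of the xenobiotic receptors AHR, CAR and PXR.

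The RNA came from AML12 cells, a non-tumourigenic line of male mouse hepatocytes that is kept with insulin, transferrin, selenium and dexamethasone in its medium. The line was derived from mice that carry a transgene for human TGF-alpha. One set of cells held a control shRNA called scramble and the other an shRNA that targets eIF6, a translation factor bound to the large ribosomal subunit. The labels write only shRNA, and the target is that given in the methods. All cells received doxycycline, which switches the shRNA on, and then insulin for 1 h (100 nM, although another label gives the same figure in mM). Cytoplasmic extracts were separated on sucrose gradients, and RNA of the light fractions (subpolysomal) and of the heavy fractions that hold several ribosomes per mRNA (polysomal) was hybridized on one-colour Agilent arrays. This made 4 groups of 4 arrays, scramble subpolysomal, scramble polysomal, eIF6 shRNA subpolysomal and eIF6 shRNA polysomal. The shRNAs were delivered by lentivirus, with puromycin selection per the methods, and untransduced cells or cells without insulin were not analysed here. The experiment was done in biological quadruplicate per the methods, but the labels do not say what separates the replicates, so p-values measure the spread between these arrays.

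Values are log2 signals after quantile normalization over the 16 arrays, averaged over the probes of a gene. A value can be compared between groups for 1 gene, but not between genes, because probes differ in brightness. Changes are differences of group means on this scale, so that a change of 1 is 2-fold. A gene was called when the adjusted p of limma, over all 19365 genes tested, was under 0.05. Between 20177 and 24953 probes were well above background per array, and no spot was saturated. The raw signal was lower in subpolysomes, where the 75th percentile of an array lay between 267 and 423, than on polysomes, where it lay between 858 and 1599. Each of the 4 slides held 1 array of every group. Eif6 itself, the target, fell by 1.05 on polysomes (standard error 0.079, adjusted p = 1.45e-07 from limma), from 12.95 ± 0.011 (SD, n = 4) in scramble to 11.89 ± 0.084 (SD, n = 4) in eIF6 shRNA cells, while in subpolysomes it changed by 0.015 (adjusted p = 0.916). The polysomal array of scramble cells with replicate number 4 stood apart for several members, and results that rest on it are given with and without it.

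Hepatocyte markers were detected in part. Krt18, Krt8, Hnf4a, Trf, Apob, Apoa2, Serpina1a and Ttr were well above background on every array. Alb was well above background on 7 of 16 arrays, Apoa1 on 2 and Fgb on none. The summed hepatocyte markers lay between 18.24 and 18.42 (log2) on all subpolysomal arrays, and on polysomes between 18.38 and 18.98 in scramble and between 18.52 and 19.00 in eIF6 shRNA cells. Of the hepatocyte markers, Ttr was called higher in both fractions (1.15 and 1.33) and no other was called. Of 7 fibroblast or stellate cell markers, 6 were called lower on polysomes and 5 in subpolysomes, beside 10.7% and 12.3% of all genes tested. Their summed log2 signal lay between 17.31 and 18.07 on scramble polysomes and between 14.73 and 15.42 on eIF6 shRNA polysomes. In subpolysomes it lay between 17.01 and 17.10 and between 15.87 and 16.18. The polysomal change minus the subpolysomal one had a median of -1.39 over the 7 and was called lower for 2, beside 1.11% of all genes. These were Acta2 (-2.73 against -0.86, adjusted p = 0.000328 from limma) and Col1a2 (-3.53 against -1.22, adjusted p = 0.000794). Of the cholangiocyte (4), macrophage (3) and endothelial (2) markers tested, 0 were called between the shRNAs in either fraction. Among all genes 11.1% were called higher and 10.7% lower on polysomes, and 11.8% and 12.3% in subpolysomes. With so few markers, 0 calls say little about these cell types. Cdh5 was well above background on no array and Clec4f on 1. The part of this shift in the changes reported next was not tested. In RNA from a whole culture, fewer cells of a type and less RNA per cell cannot be told apart.

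Detection divided the family. Of the 54 genes, 37 entered the tests, because at least 1 probe was well above background on 2 or more arrays of a group. Of these, 22 were well above background on all 16 arrays, which were 14 of the 20 cytosolic glutathione transferases, all 3 membrane ones, 3 of 17 sulfotransferases and 2 of 14 UDP-glycosyltransferases. The counts that follow are given for the 37 and, since a dim gene can pass the filter only through the group where it is bright, again for the 22. A total of 10 genes were above background on no array, namely Gstt4, Sult1c1, Sult1e1, Sult2a1, Sult2a2, Sult2a4, Sult4a1, Ugt2b1, Ugt2b38 and Ugt2b5. A further 7 were above background on 1 to 3 arrays and were not tested. These were Sult2a7, Sult3a1, Ugt1a6a and Ugt2b35 (1 array each), Sult2a3 and Ugt3a1 (2 each) and Ugt2a3 (3). These dim genes take in Sult1e1, whose enzyme sulfates oestrogens, most of the Sult2a group, whose enzymes sulfate hydroxysteroids and bile acids, and Ugt2b1 and Ugt2b5, which are abundant in liver. Of the 15 tested genes that were not bright on every array, Gstt2 and Ugt1a10 were above background on 15 arrays, Gstm7 on 14, Gstm3 on 12, Sult6b1 and Sult1d1 on 11, Gstm6 on 10, Ugt2b37 on 8, Gsta2 on 7 and Sult5a1 on 6. Sult1a1, Sult2a6, Ugt2a1 and Ugt3a2 were above background on 4 arrays each and Ugt2b36 on 2.

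More conjugation enzyme mRNAs were called higher than lower in eIF6 shRNA against scramble cells, relative to the other mRNAs of the same fraction, and this held in both fractions of the gradient, although the polysomal median of the bright members was -0.12 when arrays were scaled to spike-in probes. On polysomes 16 of 37 were called higher, beside 11.1% of all genes tested, and 1 was called lower (Gstm2), beside 10.7%. Of the 22 genes above background on every array, 11 were higher and 1 was lower, where 11.8% and 10.9% of all genes that bright were called. In subpolysomes 21 of 37 were called higher, beside 11.8% of all genes, and 0 lower, beside 12.3%, and of the 22 bright ones 18 were higher, beside 13.3%, and 0 lower, beside 12.9%. The median change of the 22 was 0.33 on polysomes and 0.57 in subpolysomes, where the medians of the 14567 genes of like detection were 0.016 and 0.014. In all, 13 members were called higher in both fractions, 3 on polysomes only, 8 in subpolysomes only, and none in opposite directions. The polysomal and subpolysomal changes come from different arrays.

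**Figure D1:**
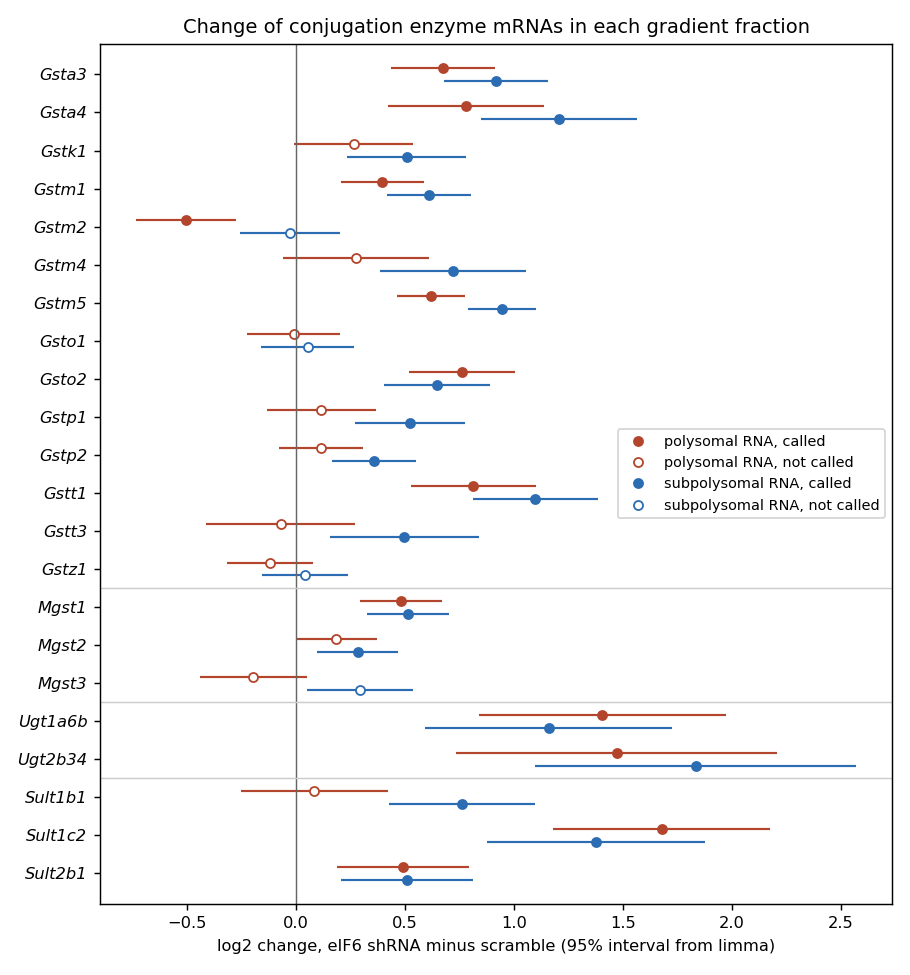
Change of the 22 conjugation enzyme mRNAs that were well above background on all 16 arrays. The x axis is the log2 change from scramble to eIF6 shRNA, bars are 95% intervals from limma, filled points were called, and lines separate cytosolic glutathione transferases, membrane ones, UDP-glycosyltransferases and sulfotransferases. Subpolysomal changes (blue) lie at or above 0 for all but Gstm2, and the polysomal change of Gstm2 (red) is the only one called below 0.

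Among the cytosolic glutathione transferases, 13 of 19 tested genes were higher in subpolysomes and 8 were higher on polysomes. The alpha class gave large changes among the bright genes. Gsta4 encodes an alpha-class enzyme with a preference for 4-hydroxynonenal, an aldehyde made when lipids are oxidized, and its probe lies at chr9:78046172-78047344 of mm9 (from the files). The 4 subpolysomal arrays gave log2 signals of 5.70, 6.43, 6.45 and 5.69 in scramble cells and 7.20, 7.29, 7.35 and 7.25 in eIF6 shRNA cells. On polysomes the values were 8.52, 8.69, 8.59 and 8.41 in scramble and 9.45, 9.48, 9.06 and 9.32 in eIF6 shRNA cells. Every eIF6 shRNA array was above every scramble array of its fraction. Gsta4 was higher by 1.21 in subpolysomes (standard error 0.17, 95% interval 0.85 to 1.56, adjusted p = 9.74e-05 from limma), the largest called in that fraction for a glutathione transferase in this processing though not under normexp background correction, and 0.78 on polysomes (standard error 0.17, adjusted p = 0.00313). Gsta3, another alpha-class gene, rose from 11.36, 11.76, 11.71 and 11.42 to 12.48, 12.38, 12.49 and 12.58 in subpolysomes and from 12.60, 12.62, 12.45 and 12.71 to 13.23, 13.38, 13.03 and 13.43 on polysomes. Its changes of 0.92 (adjusted p = 2.62e-05) and 0.67 (adjusted p = 0.000377) had no overlap between the shRNAs, and its probes gave 0.94 and 0.90 in subpolysomes. The third alpha-class gene, Gsta2, was a borderline case. It was well above background on 0 of 8 subpolysomal arrays, on 3 of 4 polysomal arrays of scramble and on 4 of 4 of eIF6 shRNA cells, with polysomal values of 4.42, 3.06, 4.19 and 4.18 against 5.17, 5.12, 4.58 and 5.30. The polysomal change of 1.08 (standard error 0.37, adjusted p = 0.0499) was the largest of a glutathione transferase in this processing, just above that of Gstm7, but it kept its call in only 6 of 15 other ways of processing. It was lost when any 1 replicate number was left out, and without the scramble polysomal array of replicate 4.

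The mu class, whose genes stand side by side on chromosome 3, did not move as a unit. Gstm5 has its probe at chr3:107701101-107701160. Its log2 signals in subpolysomes were 10.15, 10.15, 10.22 and 10.13 in scramble cells and 11.09, 11.06, 11.13 and 11.14 in eIF6 shRNA cells. On polysomes they were 10.74, 10.68, 10.66 and 10.65 and 11.41, 11.42, 11.16 and 11.21. The groups did not overlap in either fraction, with changes of 0.94 (standard error 0.073, adjusted p = 3.19e-07 from limma) and 0.62 (standard error 0.073, adjusted p = 1.53e-05). Gstm1, a major mu-class enzyme of mouse liver, was higher by 0.61 in subpolysomes and 0.39 on polysomes (adjusted p = 0.000156 and 0.00447), where spike-in scaling turned it to -0.044 and leaving out replicate 1 or 2 ended the call. One of its 2 probes is placed on chromosome 5 by the files and the other in the cluster on chromosome 3, and they changed by 0.37 and 0.42 on polysomes. Gstm7 was dimmer, above background on 2 of 4 subpolysomal arrays of scramble cells and on all 12 others, and was called higher in both fractions (0.95 and 1.07, adjusted p = 0.000609 and 0.000186). One of its 2 probes was above background on 0 of those 4 scramble arrays, and under normexp background correction the changes were 0.20 and 0.36, still called. Gstm4 was called higher in subpolysomes only (0.72, adjusted p = 0.00356), with a polysomal change of 0.27 (adjusted p = 0.261). The dim genes Gstm3 and Gstm6 were not called.

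Gstm2 was the only member called lower in either fraction, though 12 of the 37 tested members had a polysomal change below 0. Its polysomal signals were 11.15, 11.14, 11.14 and 11.19 in scramble cells and 10.75, 10.89, 10.41 and 10.56 in eIF6 shRNA cells, so that all 4 scramble arrays lay above all 4 others. In subpolysomes the values were 9.49, 9.61, 9.69 and 9.84 and 9.60, 9.51, 9.81 and 9.60, and the groups overlapped. On polysomes it differed by -0.51 (standard error 0.11, adjusted p = 0.00285 from limma) and in subpolysomes by -0.027 (adjusted p = 0.89). Its 3 probes, which lie between positions 107784622 and 107785007 of chromosome 3, gave -0.59, -0.55 and -0.38 on polysomes. Whether mu-class probes also bind RNA of a related gene was not tested. The probes of members shared at most 74.5% of aligned bases, a value reached by Gstm7 and Gstm6.

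Of the remaining classes, theta and omega each held a gene that rose in both fractions and a neighbour that did not. Gstt1, a theta-class enzyme known for acting on halogenated hydrocarbons, had subpolysomal signals of 7.61, 8.19, 8.10 and 7.68 in scramble and 9.13, 8.96, 8.93 and 8.95 in eIF6 shRNA cells. Its polysomal signals were 9.60, 9.42, 9.30 and 9.59 and 10.44, 10.37, 10.04 and 10.32. No arrays of the shRNAs overlapped, and the changes were 1.10 and 0.81 (standard errors 0.13 and 0.13, adjusted p = 2.88e-05 and 0.000375 from limma). Gstt2 and Gstt3, its neighbours on chromosome 10, were called in subpolysomes only (0.54 and 0.50, adjusted p = 0.0385 and 0.0357), with overlap between the shRNAs, and their polysomal changes were -0.0006 and -0.071. Those subpolysomal calls were kept in 10 and 9 of 15 other ways of processing. Omega-class enzymes reduce dehydroascorbate, the oxidized form of vitamin C. Gsto2 was at 9.56, 9.58, 9.66 and 9.32 in subpolysomes of scramble cells and 10.26, 10.14, 10.04 and 10.26 in those of eIF6 shRNA cells, and on polysomes at 9.08, 9.15, 9.07 and 8.83 and 10.05, 9.77, 9.83 and 9.54. It rose by 0.65 and 0.76 (adjusted p = 0.000724 and 0.000147). Its neighbour Gsto1 was almost level, with changes of 0.053 (95% interval -0.16 to 0.27) and -0.011 (95% interval -0.22 to 0.20).

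The pi-class genes Gstp1 and Gstp2, near-identical neighbours on chromosome 19, were called higher in subpolysomes (0.52 and 0.36, adjusted p = 0.00447 and 0.00977) and not on polysomes (0.12 and 0.11, adjusted p = 0.573 and 0.449). The probes of Gstp2 disagreed, with subpolysomal changes of 0.16 and 0.55, and whether they tell the 2 genes apart was not tested. Gstk1, the mitochondrial and peroxisomal kappa-class gene, was likewise called in subpolysomes only (0.51 and 0.26, adjusted p = 0.00935 and 0.174). Gstz1, whose product isomerizes maleylacetoacetate in tyrosine breakdown, changed by 0.041 and -0.12 and was not called in either fraction.

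The membrane glutathione transferases sit in the endoplasmic reticulum and outer mitochondrial membrane. Mgst1, whose 2 probes lie side by side on chromosome 6, gave subpolysomal signals of 9.62, 9.77, 9.84 and 9.75 in scramble and 10.19, 10.21, 10.30 and 10.34 in eIF6 shRNA cells. On polysomes the signals were 11.73, 11.81, 11.86 and 11.49 and 12.23, 12.27, 12.22 and 12.10. It was higher by nearly the same amount in each fraction, 0.51 (standard error 0.088, adjusted p = 0.00058 from limma) and 0.48 (standard error 0.088, adjusted p = 0.000854), with no overlap. Mgst2, which can make leukotriene C4, was called in subpolysomes (0.28, adjusted p = 0.029), with a polysomal change of 0.18 (adjusted p = 0.163). Mgst3 was called in neither, with 0.29 in subpolysomes (adjusted p = 0.0789) and -0.20 on polysomes (adjusted p = 0.271).

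**Figure D2:**
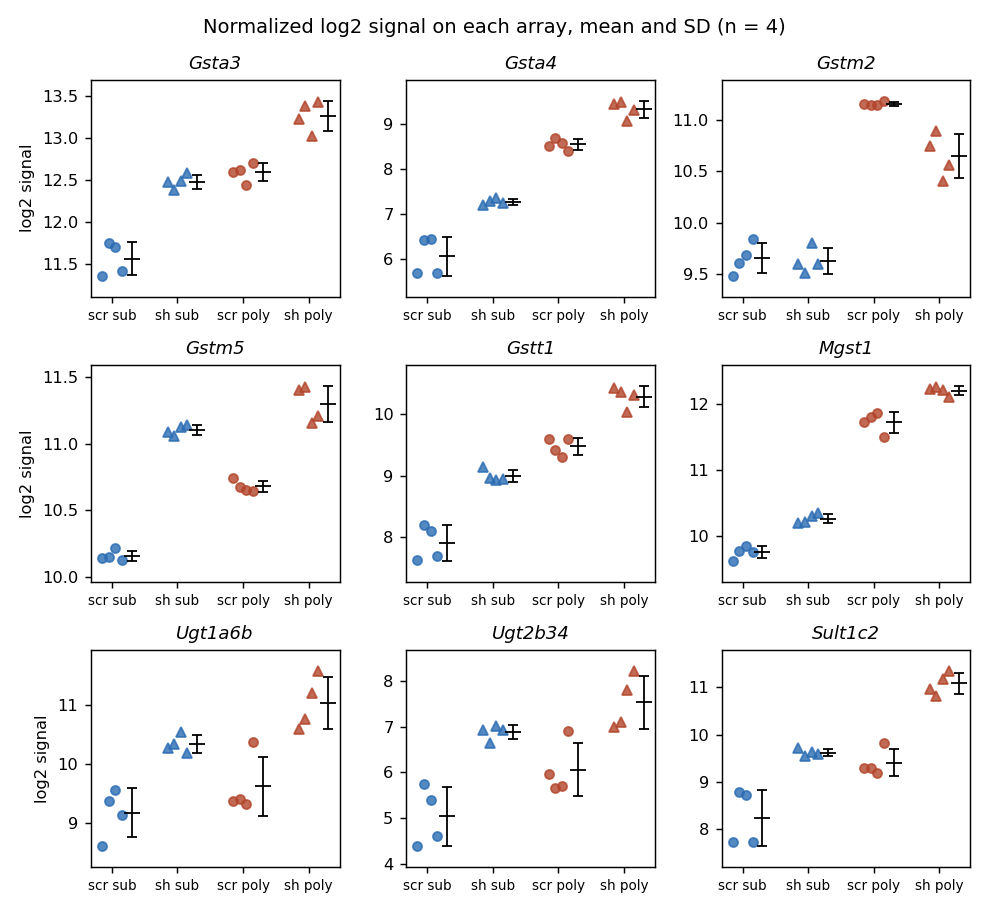
Normalized log2 signal of 9 conjugation enzyme mRNAs on each of the 16 arrays, each gene on its own axis. Circles are scramble (scr) and triangles eIF6 shRNA (sh) cells, blue is subpolysomal and red polysomal RNA, and black bars give the mean and SD of the 4 arrays. In every panel but that of Gstm2 the triangles lie above the circles of the same colour, and for Ugt1a6b and Sult1c2 the scramble polysomal array of replicate 4 lies apart from the other 3.

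Among the UDP-glycosyltransferases, Ugt1a10 had the largest change of the family in this processing. It belongs to the UGT1A cluster, whose members have their own first exon and share the remaining ones, and its 2 probes lie next to each other at chr1:89952720-89952839 of mm9. In subpolysomes its log2 signals were 1.04, 2.32, 3.41 and 2.81 in scramble and 4.49, 4.37, 4.85 and 4.27 in eIF6 shRNA cells, and on polysomes 3.96, 3.67, 3.84 and 4.77 and 5.94, 5.94, 6.27 and 6.48. The groups did not overlap. Of the 4 scramble subpolysomal arrays, 0 were well above background for one probe and 3 for the other, so the size of the subpolysomal change is uncertain. Ugt1a10 was higher by 2.10 in subpolysomes (adjusted p = 0.00103 from limma) and 2.10 on polysomes (standard error 0.39, 95% interval 1.27 to 2.92, adjusted p = 0.000922). Under normexp background correction the values were 0.40 and 0.80, both still called, and the polysomal one was then below those of Sult1c2 (1.54), Ugt1a6b (1.23) and Ugt2b34 (0.95). Ugt1a6b, from the same cluster and the relative of an enzyme that conjugates small phenols, was above background on all arrays. Its subpolysomal signals were 8.62, 9.38, 9.57 and 9.14 and 10.28, 10.34, 10.55 and 10.18, and its polysomal signals 9.39, 9.41, 9.34 and 10.38 and 10.59, 10.76, 11.21 and 11.57, for scramble and eIF6 shRNA cells in turn. The scramble array of replicate 4 on polysomes lay far above the other 3 and still below all 4 eIF6 shRNA arrays. Changes were 1.16 (adjusted p = 0.00502) and 1.41 (adjusted p = 0.00112). The probes of Ugt1a6b lie far apart on chromosome 1, one of them close to that of Ugt1a6a, which was above background on 1 array. They gave polysomal changes of 1.47 and 1.35. Since exons are shared in this cluster, the signal cannot be given to 1 member with certainty.

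Of the UGT2B genes on chromosome 5, whose human relatives conjugate steroids and bile acids, only Ugt2b34 was above background on every array. Its subpolysomal signals were 4.40, 5.76, 5.41 and 4.62 in scramble and 6.92, 6.66, 7.02 and 6.93 in eIF6 shRNA cells. On polysomes they were 5.96, 5.66, 5.71 and 6.90 and 6.99, 7.11, 7.80 and 8.22, where the highest scramble array was just below the lowest eIF6 shRNA array. Ugt2b34 was higher by 1.83 in subpolysomes (standard error 0.34, adjusted p = 0.00123 from limma) and 1.47 on polysomes (standard error 0.34, adjusted p = 0.00575), and without replicate 3 the polysomal change was not called. Ugt2b36 was above background on 2 polysomal arrays of eIF6 shRNA cells and on no other array. It thus passed the detection filter only through that group, and on polysomes the arrays of the shRNAs overlapped. In this processing Ugt2b36 was called higher on polysomes (adjusted p = 0.0368 from limma), a call kept in 9 of 14 other ways of processing. No fold is given, since only 2 arrays of the brighter group were well above background. Under normexp background correction its change was 0.090 and was not called (adjusted p = 0.267). Ugt2a1 and Ugt3a2 were not called in either fraction.

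Sulfotransferases were few on these arrays, and their change was led by Sult1c2, a member of the phenol sulfotransferase family. Its probe lies at chr17:53969205-53969264 of mm9. Subpolysomal log2 signals were 7.72, 8.78, 8.73 and 7.74 in scramble and 9.71, 9.54, 9.63 and 9.60 in eIF6 shRNA cells. Polysomal signals were 9.30, 9.29, 9.20 and 9.83 and 10.97, 10.83, 11.19 and 11.35. On polysomes the scramble array of replicate 4 was again the highest of its group, and no scramble array reached an eIF6 shRNA array of the same fraction. Sult1c2 was higher by 1.68 on polysomes (standard error 0.23, 95% interval 1.18 to 2.18, adjusted p = 7.71e-05 from limma) and by 1.38 in subpolysomes (standard error 0.23, adjusted p = 0.000552). Sult2b1, which sulfates cholesterol and related sterols, was higher by about the same amount in both, 0.49 and 0.51 (adjusted p = 0.0218 and 0.0168). Its scramble polysomal array of replicate 4 was the lowest of its group (10.33, 10.38, 10.43 and 9.82, against 10.81, 10.99, 10.63 and 10.48 in eIF6 shRNA cells), and the polysomal call was lost without that array and without replicate number 1, 2 or 3. Sult1b1, an enzyme for thyroid hormones and phenols, was called in subpolysomes only (0.76, adjusted p = 0.00253), with 0.082 on polysomes (adjusted p = 0.793). Sult6b1, of little-known substrates, was called on polysomes only (0.74, adjusted p = 0.0119, with 0.049 in subpolysomes), where it was well above background on 1 of 4 scramble and 4 of 4 eIF6 shRNA arrays. That call was lost without replicate 3, with each array's 75th percentile as the scale (0.63, adjusted p = 0.0628), with spike-in probes as the scale (0.16, adjusted p = 0.84) and under normexp background correction (0.10, adjusted p = 0.156). The dim genes Sult1a1, Sult1d1, Sult2a6 and Sult5a1 were not called.

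Without the scramble polysomal array of replicate 4, 15 members were called on polysomes (14 higher and Gstm2 lower) and 22 in subpolysomes, all higher. Within slides 1 to 4, where each group has 1 array, 19, 15, 21 and 14 of the 22 bright members had a change above 0 on polysomes, and 20, 20, 22 and 22 in subpolysomes. The median change of the 22 bright members was 0.38, 0.17, 0.45 and 0.18 on polysomes of the 4 slides and 0.43, 0.56, 0.59 and 0.77 in subpolysomes. When arrays were scaled to the 7 spike-in probes, the median of all genes moved to -0.47 on polysomes and -0.23 in subpolysomes. The median of the 22 bright members lay above it by 0.36 and 0.54, but 1 of the 17 polysomal calls (Ugt1a10) and none of the 21 subpolysomal calls was kept, so the direction given here is relative to the other mRNAs of the same fraction. Another background correction (normexp with an offset of 50), which shrinks the differences of dim probes, made the subpolysomal changes of Gsta4, Gstm4, Gstt2, Gstt3, Sult1b1 and Ugt2b34 smaller by over 1.5 times (0.73, 0.43, 0.18, 0.31, 0.41 and 0.97), with each still called, and the polysomal changes of Gsta2 and Ugt2b34 (0.26 and 0.95).

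Gradient position was the second comparison. Most conjugation enzyme mRNAs had a higher signal on polysomes than in subpolysomes, in both kinds of cell. In scramble cells 26 of 37 were called higher on polysomes than in subpolysomes, beside 31.7% of all genes. A further 3 were called lower, beside 28.4%. Of the 22 bright members 19 were called higher, beside 34.4%, and 1 was called lower, beside 31.8%. In eIF6 shRNA cells 25 of 37 were called higher (32.1% of all genes) and 3 lower (28.7%). Of the 22 bright ones 18 were called higher (35.1%) and 1 lower (31.4%). The median difference of the 22 was 1.34 in scramble and 1.10 in eIF6 shRNA cells, beside 0.022 and 0.040 for genes of like detection. The same 23 members were called higher in both kinds of cell and the same 3 were called lower (Gsto2, Sult6b1 and Ugt2b37). Because both fractions were brought to 1 distribution of signals, these values rank an mRNA against others and do not give the share of its molecules that is on polysomes.

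Among the bright members the difference was largest for Gsta4 (2.48 in scramble and 2.05 in eIF6 shRNA cells), Gstt3 (2.30 and 1.74), Mgst3 (2.24 and 1.75), Gstk1 (2.17 and 1.92) and Mgst1 (1.98 and 1.94), all with an adjusted p of limma at or below 3.45e-07 in both kinds of cell. Gsto1 signals rose from 15.50 ± 0.096 (SD, n = 4) in subpolysomes to 17.16 ± 0.10 (SD, n = 4) on polysomes of scramble cells, a difference of 1.65. The neighbouring gene Gsto2 lay the other way, with 9.53 ± 0.15 (SD, n = 4) in subpolysomes and 9.04 ± 0.14 (SD, n = 4) on polysomes. Gsto2 differed by -0.49 (adjusted p = 0.00159 from limma) and, in eIF6 shRNA cells, -0.38 (adjusted p = 0.00965), and it turned to the other direction when each fraction was normalized on its own or arrays were scaled to the spike-in probes. Sult2b1 was nearly even between the fractions (0.092 and 0.073, adjusted p = 0.597 and 0.679), and Ugt1a6b was not called in scramble cells (0.45, adjusted p = 0.161).

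The lowest polysomal position was that of Ugt2b37, a gene singled out after its values had been seen. Its probe, at chr5:87669707-87669766 of mm9, gave 5.42, 5.73, 5.42 and 5.35 in scramble subpolysomes and 5.99, 5.92, 5.51 and 5.59 in those of eIF6 shRNA cells, well above background on all 8 arrays. On polysomes it gave 1.90, 1.00, 1.99 and 1.89 and 2.34, 1.01, 1.03 and 1.56, and was well above background on none of the 8. Its polysomal signal in this processing was thus lower by a factor of at least 6.87 in scramble cells (adjusted p = 2.64e-08 from limma). For the eIF6 shRNA the factor was at least 7.67 (adjusted p = 9.97e-09). Both calls were kept in 15 of 15 other ways of processing, but the size varied. There the log2 difference lay between -4.36 and -0.77 for scramble and between -4.93 and -0.93 for the eIF6 shRNA. Ugt2b37 passed the detection filter only through its subpolysomal groups. Its subpolysomal change between the shRNAs was 0.27 (adjusted p = 0.525). Sult6b1 also had a lower polysomal signal, with a difference of -1.39 in scramble (adjusted p = 1.92e-05) and -0.70 in eIF6 shRNA cells (adjusted p = 0.00559), the latter turning to 0.062 and 0.20 under spike-in scaling and when the fractions were normalized separately. In scramble cells the call was lost under spike-in scaling (-0.30, adjusted p = 0.58), and in eIF6 shRNA cells those of Sult6b1 and Gsto2 were lost without replicate 2.

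**Figure D3:**
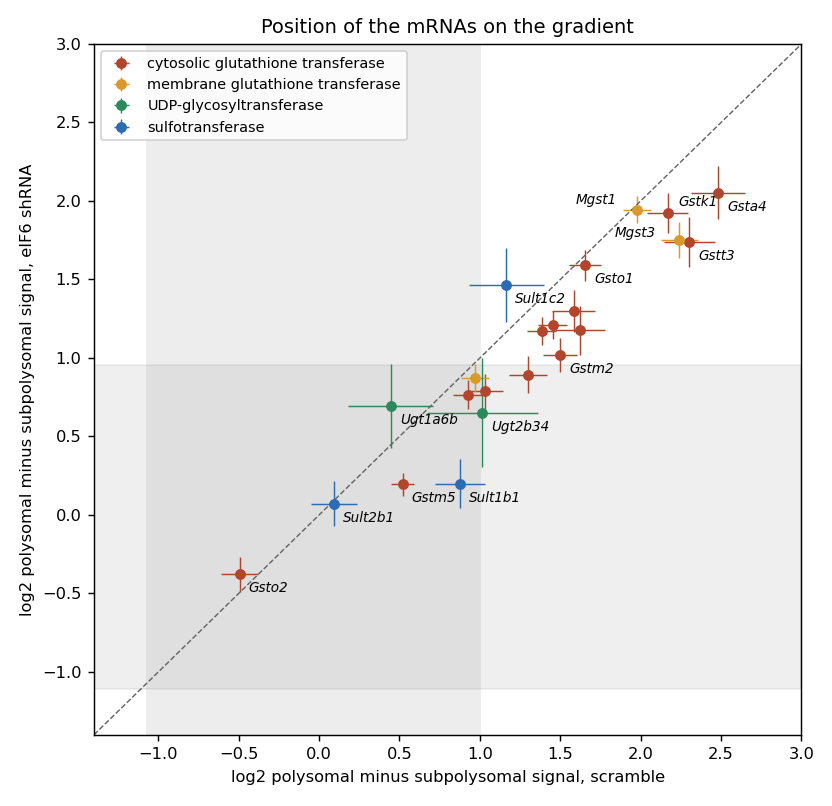
Polysomal minus subpolysomal log2 signal of the 22 bright members in scramble (x axis) and eIF6 shRNA cells (y axis), with standard errors from limma. The grey bands hold the middle 80% of all genes above background on every array (-1.07 to 1.00 and -1.11 to 0.96), and the dashed line marks equal values. Of the 22, 12 lie beyond both bands to the upper right, all of them below the line but Sult1c2, and Gsto2 lies below 0 on both axes, a position that turned under spike-in scaling and when the fractions were normalized separately.

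Translational efficiency sets the polysomal change against the subpolysomal one, and uses all 4 groups. It was called for 0 of 37 members in limma, where 1.11% of all genes were called lower and 0.403% higher. At an unadjusted p under 0.05, 8 members were lower and 2 higher (21.6% and 5.41%), beside 7.34% and 5.15% of all genes, and of the 22 bright members 6 were lower and 0 higher. Of the 14567 genes of like detection, 1784 had an unadjusted p under 0.05 in either direction. The adjusted calls among them, which were 1.17% lower and 0.275% higher, compare with 0 of the 22 and not with the unadjusted counts. The median change of the 22 was -0.24, with 19 of 22 below 0, beside 0.022 for genes of like detection. The most negative values among them were those of Sult1b1 (-0.68, standard error 0.22, adjusted p = 0.182), Gstt3 (-0.57, adjusted p = 0.301), Mgst3 (-0.49, adjusted p = 0.186) and Gstm2 (-0.48, adjusted p = 0.163), and the highest was that of Sult1c2 (0.30, standard error 0.33, adjusted p = 0.783). For Mgst1 and Sult2b1 the 95% intervals, which are not adjusted for the number of genes, were -0.30 to 0.23 and -0.45 to 0.41. That of Gstm2 was -0.80 to -0.15 and still gave no call. With 4 arrays a group, changes beyond such intervals could therefore also be missed.

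Sequence around the start sites was searched in the members, because binding sites of NRF2 are known in glutathione transferase promoters. RefSeq windows on GRCm38.p6 from 250 bases before to 50 bases after a start were found for 46 of the 54 members, in 57 windows. The motif TGACNNNGC, the core of the antioxidant response element, was searched on both strands. It was found in 4 of the 57 windows, beside 12.4% of all 32851 windows, in Gsta3, Gstm5, Gstm7 and Mgst1. Each is shown 5′ to 3′ along the gene's strand with the motif in capitals. For Mgst1 the motif is on the opposite strand, so its reverse complement is printed.
Gsta3: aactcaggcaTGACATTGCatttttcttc
Gstm5: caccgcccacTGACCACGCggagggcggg
Gstm7: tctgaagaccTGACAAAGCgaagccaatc
Mgst1: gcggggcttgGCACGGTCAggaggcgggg

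These stretches lie at chr1:21240454-21240482 (plus strand, motif ending 112 bases before the start), chr3:107895802-107895830 (plus, 33 bases), chr3:107931725-107931753 (minus, 120 bases) and chr6:138140461-138140489 (plus, 47 bases), in the order printed. All 4 genes were among the 13 called higher in both fractions, of which 11 had a window. Of the 22 other tested members with a window, 0 held the motif, a split that rests on only 4 matches. The core of the element bound by AHR, GCGTG, was found in 10 of the 57 windows, beside 32.4% of all windows, in Gsta2, Gstm1, Gstm5, Gstp1, Mgst3, Sult1b1, Sult1d1 and Sult2b1. Of these genes, Gstm1, Gstm5 and Sult2b1 were among the 13 called higher in both fractions, and the others were not. A match is a match of letters, and no binding was measured. Whether either motif bears on the changes was not tested.

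Genes that supply and export the conjugates were taken from lists, whose counts stand beside shares of all genes of 11.1% higher and 10.7% lower on polysomes and 11.8% and 12.3% in subpolysomes. Of 12 genes of glutathione supply, 3 were higher on polysomes and 1 in subpolysomes, with none lower. Oplah, the 5-oxoprolinase that returns glutamate to glutathione synthesis, was higher in both (1.08 and 0.99, adjusted p = 0.00205 and 0.00424 from limma). Gsr, glutathione reductase, was higher on polysomes (0.51, adjusted p = 0.00359). Ggt1, the transferase that starts glutathione breakdown outside the cell, was called on polysomes (adjusted p = 0.0199). It was well above background on 0 scramble and 3 eIF6 shRNA polysomal arrays, and passed the detection filter only through the latter group. Gclc and Gclm, the subunits of the rate-limiting glutamate-cysteine ligase, changed by 0.28 and 0.18 on polysomes and were not called (adjusted p = 0.163 and 0.526). Of 6 genes listed under UDP-glucuronate supply, which include the beta-glucuronidase gene Gusb, none was called on polysomes. Slc35d1, a transporter of the sugar donor, was lower in subpolysomes (-0.43, adjusted p = 0.0091). Of 10 genes of sulfate supply, 2 were higher and 1 lower on polysomes. The higher ones were Slc26a2, a sulfate transporter (0.66), and Sts, steroid sulfatase (0.53), with adjusted p = 0.00756 and 0.00725. The lower one was Papss2, which makes the sulfate donor PAPS (-0.96 on polysomes and -0.53 in subpolysomes, adjusted p = 0.000818 and 0.0388).

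Other conjugation enzymes, outside the families above, gave only a few tested genes. Of 9 tested genes of methyl, acetyl and amino acid conjugation (15 of 16 were on the array), 0 were called higher in either fraction. Among all genes 11.1% (polysomes) and 11.8% (subpolysomes) were called higher, so 0 of 9 lies near those shares. Called lower were 4 on polysomes and 3 in subpolysomes, beside 10.7% and 12.3% of all genes. Nnmt, which methylates nicotinamide, changed by -1.57 on polysomes and -0.94 in subpolysomes (adjusted p = 0.000348 and 0.0151 from limma), and Hnmt, which methylates histamine, by -1.29 on polysomes (adjusted p = 0.000619). The median of the 9 was -0.18 on polysomes and -0.27 in subpolysomes. Of 6 exporters of conjugates, 3 were higher and 1 lower on polysomes, and 2 were higher and 1 lower in subpolysomes. Abcc2, which moves glutathione and glucuronide conjugates into bile, was higher by 1.14 and 0.92 (adjusted p = 2.2e-06 and 2.49e-05). Abcc1 was the lower one (-0.62 and -0.51, adjusted p = 0.00989 and 0.0275). Of 14 tested regulators, which include the hepatocyte marker Hnf4a, Ppara was higher on polysomes (0.27, adjusted p = 0.0302) and Bach1 was lower in subpolysomes (-0.32, adjusted p = 0.0179). Nr1i2, the gene of PXR, was called lower on polysomes (adjusted p = 0.00184), where it was above background on 3 scramble and 0 eIF6 shRNA arrays. Nr1i2 passed the detection filter only through the scramble polysomal group, where it was high. Nfe2l2, the gene of NRF2, changed by 0.032 on polysomes (adjusted p = 0.815), Keap1 by -0.14 (adjusted p = 0.593) and Ahr by 0.15 (adjusted p = 0.616). Translational efficiency was called for 0 genes of these lists.

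**Figure D4:**
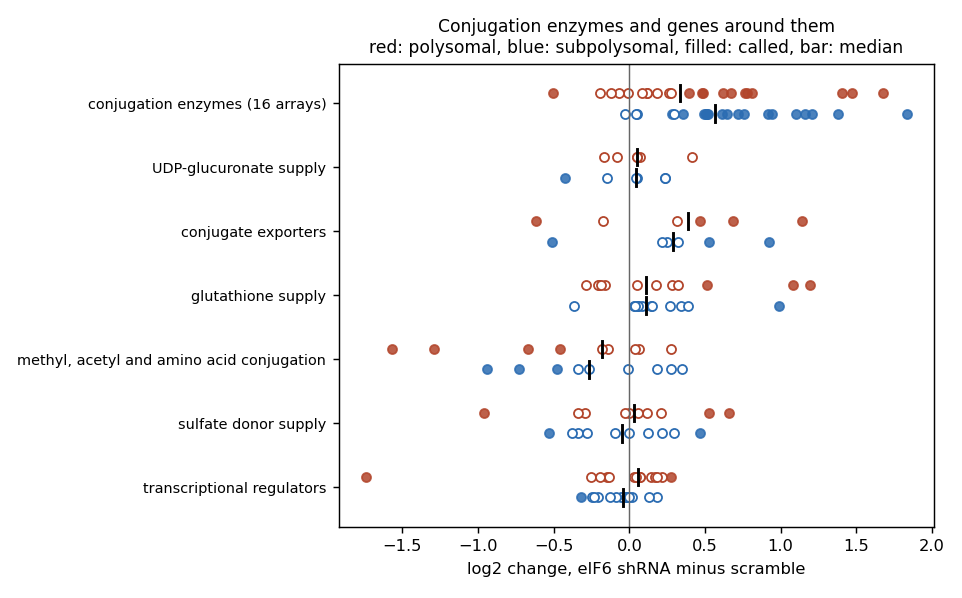
Log2 change from scramble to eIF6 shRNA of the 22 bright conjugation enzymes (top) and of the tested genes of 6 lists around them, in polysomal (red) and subpolysomal (blue) RNA. Each point is 1 gene, filled where limma called it, and black bars are medians. The outermost polysomal points of glutathione supply (Ggt1) and of the regulators (Nr1i2) each compare with a group that was not well above background. The conjugation enzymes have their medians at 0.33 and 0.57, and the genes of methyl, acetyl and amino acid conjugation at -0.18 and -0.27.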

How the data were processed

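The authors deposited the Agilent Feature Extraction output of 16 arrays, with a background-corrected intensity for each spot, and their own quantile-normalized log2 table. The labels give version 10.7.7.1 and the file headers 10.7.3.1. The correlation of the deposited log2 table with the intensities was 0.995 to 1.000. Gene names and mm9 probe positions are those of the files.

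Uneven and outlier spots were left out (82 probe values missing) and repeated probes averaged. A probe was kept if 2 or more arrays of any group had it well above background (25260). Log2 intensities were quantile normalized, and kept probes of a gene averaged. limma 3.58.1 in R 4.3.3 (the tool named in the study's methods) was fitted with 4 group means, a design chosen here, with Benjamini-Hochberg adjustment over 19365 genes at 0.05. Bounds for dim groups use the lowest signal well above background on each array. The procedure was tested on simulated data. Members and lists were chosen with earlier results of these data known. Values are given for members called in at least 1 comparison of the shRNAs or above background on all 16 arrays (28), and of the lists for calls of at least 1 on the log2 scale, with others named after their values were seen. The number of arrays limits precision. Arrays of like replicate number mostly did not vary together (correlations of deviations from -0.21 to 0.41, with 3 of 24 over 0.1). They did not lie on 1 slide each. Pairs of fractions from the same kind of cell were not examined separately. Arrays of like slide varied together more often (median 0.13, with 14 of 24 over 0.1), and slide was not in the main fit. Figures were drawn with matplotlib 3.10.9.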

Additional observations from a re-analysis of the deposited data

Results flagged for a closer look

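Of 112 sets of 4 arrays (28 named members in 4 groups), 6 held an array far from the other 3, where chance gives about 1 in 20. Of these, 4 were the polysomal array of scramble cells with replicate number 4, with log2 signals of 8.89 for Gstt3, 9.83 for Sult1c2, 9.82 for Sult2b1 and 10.38 for Ugt1a6b, of which that of Sult2b1 lay below the nearest other array (10.33) and the rest above it (8.74, 9.30 and 9.41). The subpolysomal array of replicate 1 of eIF6 shRNA cells stood above the others for Gstt1 (9.13, nearest 8.96). That of replicate 3 stood above the others for Ugt2b36 (1.99, nearest 0.97), which was not above background in that group.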

How the results depend on the processing

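The counts of members called kept within 1.5 times under all alternatives but spike-in scaling, under which 2 were called on polysomes (1 of them, Ugt1a10, among the 17) and 0 in subpolysomes. With each replicate left out in turn, 12 to 16 members were called on polysomes (17 with all arrays) and 14 to 20 in subpolysomes (21), 28 to 29 (scramble) and 24 to 28 (eIF6 shRNA) in gradient position, and 0 in translational efficiency, which was 0 under every alternative. With the replicate block the counts were 17 on polysomes, 20 in subpolysomes, 29 and 28 in gradient position and 0 in translational efficiency, and the subpolysomal call of Gstt3 was lost. With the slide as a block 18 and 21 were called, and with the log2 values of the authors 16 and 21. Without the scramble polysomal array of replicate 4, an alternative chosen after seeing the data, 15 and 22 were called.

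Directions turned in these cases. Under spike-in scaling the polysomal change of Gstm1 was -0.044, and the polysomal minus subpolysomal signal was 1.24 and 1.21 for Gsto2 (scramble and eIF6 shRNA cells) and 0.062 for Sult6b1 (eIF6 shRNA cells). With each fraction normalized on its own it was 1.13 and 1.30 for Gsto2 and 0.20 for Sult6b1 (eIF6 shRNA cells). The cause was not tested. Of the 254 refits of single members on polysomes 216 kept their call, and of 315 in subpolysomes 271. In subpolysomes the calls of Gstk1, Gstm4, Gstp1, Gstp2, Gstt2, Gstt3, Mgst2 and Sult2b1 were lost without at least 1 replicate number. The share of all genes called higher on polysomes was 11.1%, 5.73% without a detection filter, 0.522% under spike-in scaling and between 6.72% and 13.6% with a replicate left out. In subpolysomes it was 11.8%, 6.25%, 0.222% and between 6.26% and 15.8%. Signal over background limits the dim members, and Ugt2b36 and Gsta2 kept 9 of 14 and 6 of 15 polysomal calls.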
